A study of Saccharomyces cerevisiae with 12 samples.

Results

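Yeast cultures given tomatine were compared with cultures given the solvent alone, and this comparison was followed across all genes that the arrays measured. The compared arrays are the 3 whose titles name tomatine at 13.9 ppm, from days 1, 2 and 3, and the 3 titled as vehicle-only controls of the same days. These 6 arrays are 6 of the 12 in the series, and 5656 genes, each with a probe set that names it alone, could be followed.

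All cultures were Saccharomyces cerevisiae strain S288C, started from an OD600 of 0.1, kept at 30 °C for 1 h before any addition and then exposed for 5 h. The tomatine cultures received tomatine at 13.9 ppm and the control cultures received only the solvent dimethylformamide, which the treated cultures carried as well. The same series holds 3 cultures with tomatidine at 0.625 ppm and 3 with fenpropimorph at 0.313 ppm, which share the control cultures and serve here as background. The source field of the labels gives tomatidine at a single dose in all samples, the controls among them, so groups and doses were taken from the titles. An array is named by its group and day, so that tomatine 2 is the tomatine culture of day 2.

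Tomatine is a steroidal glycoalkaloid of the tomato plant, a saponin with a steroid core and a chain of sugars. Tomatidine is that core without the sugars, and fenpropimorph is a fungicide that blocks steps of ergosterol synthesis. Saponins of this kind are known to bind membrane sterols, and ergosterol is the main sterol of yeast membranes. When sterol synthesis is blocked, yeast raises the genes of the pathway through the transcription factors Upc2 and Ecm22. Fast growing yeast spends much of its transcription on making ribosomes, and the genes for ribosome assembly and those of the general stress response are known to move in opposite directions in many conditions.

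Arrays correlated at 0.995 to 0.996 within tomatine and at 0.996 to 0.997 within control, and at 0.993 to 0.996 between the groups. Array medians lay between 77.2 and 78.6 over the series. The third principal component, with 6.99% of the variance, had the tomatine arrays at -8.19, -9.71 and -9.61 and the control arrays at 3.66, 8.73 and 4.47. The groups did not overlap on the first either (59.8%), with tomatine at -15.4, -16.3 and -15.5 and control at -10.9, -10.4 and -12.9. On the second (10.1%) tomatine lay at 0.74, -2.49 and 0.35 and control at -7.58, -12.8 and -5.61. RNA quality was read from control probe sets at the ends of transcripts: the log2 ratio of the 3′ over the 5′ probe set of ACT1 was 0.33 ± 0.0661 with tomatine and 0.35 ± 0.0244 in controls (SD, n = 3 arrays each). That of SPT15 was 2.24 ± 0.0306 with tomatine and 2.33 ± 0.174 in controls, and that of SRB4 was 1.40, 1.17 and 1.19 with tomatine and 1.18, 1.07 and 1.14 in controls. The groups overlapped for each of these ratios, and their part in the results was not tested. The markers of mating type are given as probe set intensities, which cannot be set against each other between genes. The alpha-cell genes MF(ALPHA)1, SAG1, MF(ALPHA)2 and STE3 averaged 5231, 1796, 1339 and 855 over all arrays. The a-cell genes STE2, AGA2, ASG7, BAR1 and STE6 averaged 6.77 to 14.2, and MFA1 and MFA2 averaged 60.4 and 95.2. None of the 4 alpha-cell and 7 a-cell genes was called between tomatine and control.

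Values below are probe set intensities on a linear scale, in arbitrary units, given for days 1, 2 and 3. Fold changes are on the log2 scale, tomatine minus control, with the standard error of the fit (n = 3 arrays in each group). A gene was called, and is said to have risen or fallen, at a Benjamini-Hochberg adjusted p under 0.05 in limma, over all 9275 probe sets. With tomatine 404 probe sets were called (4.36% of those tested), 240 of them higher (2.59%) and 164 lower (1.77%). Counted by gene, 222 were higher (3.93%) and 143 lower (2.53%), and the median log2 fold change of all genes was 0.01. The shifts were small: 13 of the higher and 52 of the lower probe sets changed by at least 1.5-fold, and 4 and 9 by at least 2-fold. The groups did not overlap in 240 of the 240 higher and 163 of the 164 lower probe sets, where 14.1% of all probe sets were higher and 10.5% lower without overlap. Cultures were measured in bulk, so that fewer cells of a type and less RNA per cell cannot be told apart.

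Fewer probe sets were called when 1 array was left out. The number of calls was 217, 183 and 100 without tomatine 1, 2 and 3, of which 203, 163 and 95 were among the 404. It was 83, 99 and 276 without control 1, 2 and 3, of which 83, 93 and 231 were among the 404. Called in all of these 6 fits were 58 probe sets, 28 higher and 30 lower. Each of these fits holds fewer arrays. All 404 probe sets kept their direction in all 6 fits, but leaving out 1 array cannot turn it where the groups do not overlap. That was so for nearly all of the 404. The smallest log2 fold change among the 6 was at least 64.8% of the value with all arrays (87.0% at the median probe set). Below, a gene whose call held in each of the 6 fits is said to have been called without any 1 array, and for others the arrays without which the adjusted p passed 0.05 are named.

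**Figure D1:**
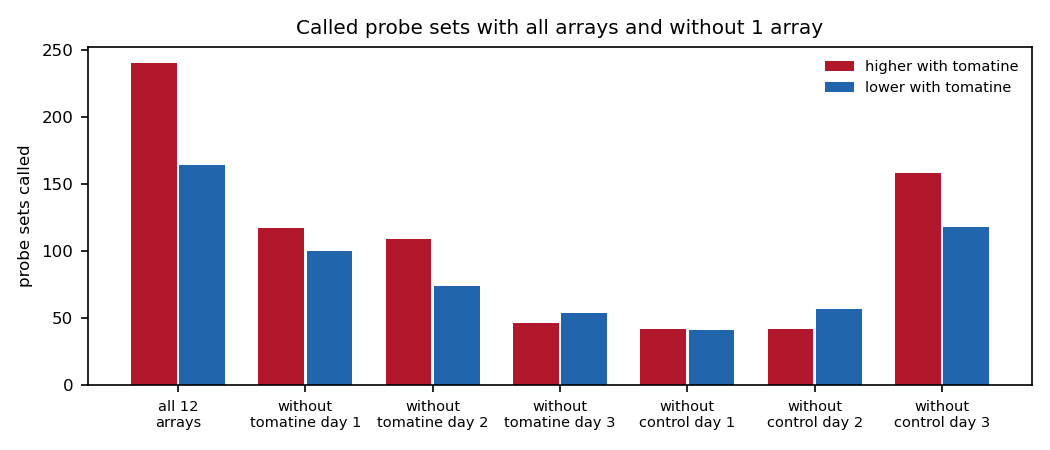
Number of probe sets called higher (red) and lower (blue) with tomatine against control, with all 12 arrays and with 1 array left out. All arrays gave 240 higher and 164 lower, and the fits without tomatine 3, control 1 or control 2 gave 41 to 57 in each direction.

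Several genes that make and use one-carbon units from glycine fell with tomatine, the lowest named gene of all among them, while most of the list did not pass the test. Glycine cleavage in mitochondria passes a carbon of glycine to tetrahydrofolate, and cytosolic enzymes carry such carbons to purines and methionine. Of 18 measured genes of glycine cleavage and one-carbon metabolism 6 fell, against 2.53% of all genes, 0 rose and 12 were not called. The list median was -0.08, and 7 members were above 0. Of the 6 calls, 6 were kept without tomatine 1 or tomatine 2, and 5 without tomatine 3, control 1, control 2 or control 3.

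GCV2, the glycine-decarboxylating P subunit, had 1021, 541 and 754 with tomatine, against 2299, 2121 and 2118 in controls. GCV1, the T subunit that hands on the methylene group, had 1204, 1060 and 996 with tomatine and 2294, 2515 and 2311 in controls. GCV3, the lipoyl-bearing H subunit, had 3306, 3388 and 3110 with tomatine and 6310, 5661 and 5527 in controls. All 3 genes specific to the complex were lower on every tomatine array than on any control array, and tomatine 2 was lowest for GCV2 but not for GCV1 or GCV3. The log2 fold changes were -1.54 ± 0.216 for GCV2, -1.13 ± 0.131 for GCV1 and -0.83 ± 0.113 for GCV3 (limma adjusted p = 0.00597, 0.00436 and 0.00574). LPD1, the subunit that the complex shares with the 2-oxoacid dehydrogenases, was not called and had 1961, 2092 and 2089 with tomatine and 2520, 2222 and 2394 in controls (-0.21, adjusted p = 0.153).

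Cytosolic and mitochondrial enzymes of folate chemistry were measured side by side. MTD1, the cytosolic NAD-dependent methylenetetrahydrofolate dehydrogenase, had 811, 673 and 634 with tomatine and 1338, 1425 and 1423 in controls (-0.99 ± 0.153, adjusted p = 0.00801). ADE3, the cytosolic trifunctional folate enzyme, had 2106, 1977 and 2052 with tomatine and 2781, 2867 and 2921 in controls (-0.48 ± 0.0731, adjusted p = 0.00733). SHM2, the cytosolic serine hydroxymethyltransferase, had 2671, 2397 and 2066 with tomatine and 3257, 3322 and 3436 in controls (-0.50 ± 0.0969, adjusted p = 0.0184). For each of these cytosolic enzymes the groups did not overlap. Their mitochondrial counterparts were not called: MIS1, the counterpart of ADE3, had 537, 587 and 500 with tomatine and 473, 412 and 505 in controls (0.23, adjusted p = 0.205). SHM1, the counterpart of SHM2, had 1581, 1515 and 1692 with tomatine and 1448, 1432 and 1438 in controls (0.15, adjusted p = 0.228). The difference between the cytosolic and the mitochondrial enzymes was not tested.

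GCV1, GCV2, GCV3, MTD1 and ADE3 were called without any 1 array, while SHM2 lost its call without tomatine 3, control 1, control 2 or control 3 (adjusted p from 0.0508 to 0.0667). Other members lay near the threshold: AGX1, which makes glycine from glyoxylate, stood at -0.38 (adjusted p = 0.0502) and FOL1, of folate synthesis, at 0.35 (adjusted p = 0.0681). With the day of culture as a block FOL1 was called higher (adjusted p = 0.026). GLY1, the threonine aldolase that makes glycine, stood at 0.23 (adjusted p = 0.0789).

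**Figure D2:**
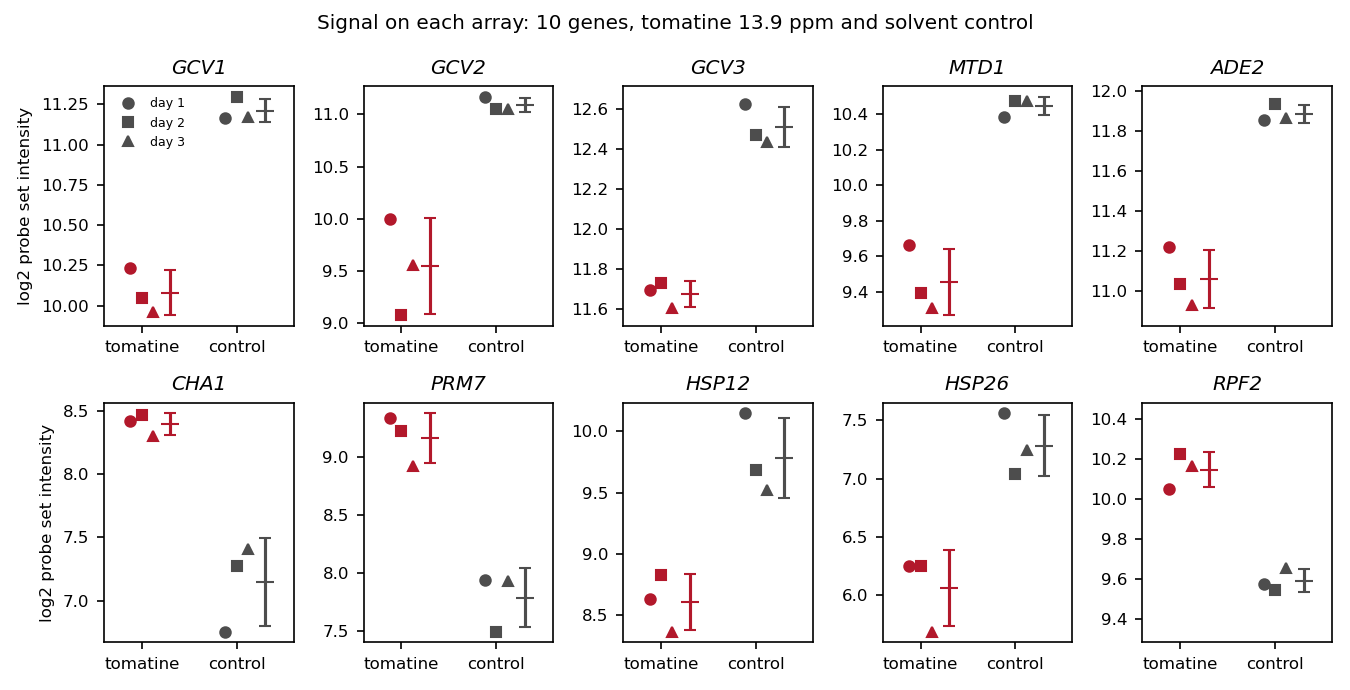
Log2 probe set intensity of 10 genes on each tomatine array (red, left) and each control array (grey, right), with the mean and SD of 3 arrays beside the points. GCV1, GCV2, GCV3, MTD1, ADE2, HSP12 and HSP26 lie lower and CHA1, PRM7 and RPF2 higher on all tomatine arrays than on any control array, and control 1 is the highest control for HSP12 and HSP26.

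Purine synthesis takes up formyl groups made in that folate route. Of 20 measured genes 6 fell, against 2.53% of all genes, and 1 rose, against 3.93%, with a list median of -0.05. The genes that fell all act on the pathway from phosphoribosylamine to AMP. ADE2, the AIR carboxylase, had 2382, 2098 and 1950 with tomatine and 3702, 3918 and 3730 in controls (-0.82 ± 0.123, adjusted p = 0.0071). ADE1, which acts next as SAICAR synthetase, had 2288, 1915 and 1912 with tomatine and 3276, 3303 and 3512 in controls (-0.73 ± 0.15, adjusted p = 0.0233). The groups did not overlap for either gene. ADE8, ADE17, ADE13 and ADE6 fell by less (-0.59, -0.56, -0.53 and -0.51, adjusted p = 0.0295, 0.0212, 0.0272 and 0.044). ADE4, the first committed step, was not called (-0.35, adjusted p = 0.307), nor was ADE12, which turns IMP towards AMP (-0.15, adjusted p = 0.405).

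ADE2 alone of these was called without any 1 array. The count of 6 lower genes was 4 without tomatine 1 and 1 without each of tomatine 2, tomatine 3, control 1, control 2 and control 3. ADE1, ADE17 and ADE13 lost their call without any array but tomatine 1 (adjusted p from 0.0537 to 0.0958), and ADE8 and ADE6 lost it without each of the 6 arrays (0.0583 to 0.131). BAS1, the Myb factor that with Pho2 activates purine, histidine and glycine cleavage genes, had 175, 201 and 164 with tomatine and 148, 124 and 146 in controls (0.37 ± 0.0914, adjusted p = 0.0456). That call of a higher BAS1 was lost without each of the 6 arrays (0.0651 to 0.154) and with the day as a block (adjusted p = 0.063). PHO2 stood at 0.04 (adjusted p = 0.889). The 5 genes for phosphoribosyl pyrophosphate synthetase subunits stood at 0.10 to 0.27 (PRS2 lowest and PRS3 highest), and none was called. GUA1, the GMP synthetase, had 2662, 1276 and 2461 with tomatine and 2099, 1964 and 2080 in controls, so that tomatine 2 lay below and the other tomatine arrays above every control.

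Genes for salvage and uptake of bases did not share that direction. Of 14 measured, 3 rose, against 3.93% of all genes, and 1 fell, against 2.53%, with a list median of 0.13. FCY21, related to the purine and cytosine permease FCY2, had 31.6, 31.9 and 31.6 with tomatine and 16.8, 16.8 and 16.5 in controls (0.93 ± 0.117, adjusted p = 0.00436). Its probe set was dim, with a mean of 23.6 over all arrays. URK1, the uridine and cytidine kinase, had 103, 91.4 and 107 with tomatine and 66.7, 68.9 and 74.7 in controls (0.52 ± 0.0724, adjusted p = 0.00597). APT1, the adenine phosphoribosyltransferase, had 508, 435 and 491 with tomatine and 349, 347 and 359 in controls (0.44 ± 0.0768, adjusted p = 0.0126). The groups did not overlap for these 3 genes, and FCY21 and URK1 were called without any 1 array. APT1 lost its call without tomatine 3, control 1 or control 2 (0.0513 to 0.0556). TPN1, a pyridoxine transporter of the same permease family, fell (-0.52, adjusted p = 0.0161) and lost its call without tomatine 2, tomatine 3, control 1 or control 2 (0.05 to 0.0603). Of the 3 higher calls, 2 were kept without tomatine 3, control 1 or control 2, and 3 in each other fit. The list held 4 higher calls without tomatine 2 or control 3.

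Of 13 genes of serine and threonine synthesis and breakdown 1 rose and 2 fell, where 3.93% of all genes rose and 2.53% fell, and 10 were not called. CHA1, the deaminase that breaks down serine and threonine, had 342, 352 and 314 with tomatine and 108, 155 and 170 in controls (1.24 ± 0.134, 2.37-fold, adjusted p = 0.00436), with no overlap, and was called without any 1 array. SER2, the phosphoserine phosphatase that ends serine synthesis, had 457, 412 and 396 with tomatine and 580, 610 and 651 in controls (-0.54 ± 0.117, adjusted p = 0.027). SER1, the aminotransferase before it, stood at -0.47 (adjusted p = 0.0456). The count of 2 lower genes was 1 without tomatine 1 and 0 without each other array. SER2 lost its call without any array but tomatine 1 (0.0646 to 0.0973) and SER1 without each of the 6 (0.0784 to 0.138).

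Among other amino acid genes the counts stayed small. In histidine and aromatic amino acid synthesis 3 of 21 fell, against 2.53% of all genes, and 0 rose. The 3 were the histidine genes HIS7, HIS5 and HIS3 (-0.56, -0.55 and -0.55, adjusted p = 0.0266, 0.0408 and 0.0301). Without tomatine 1 the count was 2 and without each other array it was 0 (adjusted p of the lost calls from 0.0541 to 0.112). A second probe set of HIS3 stood at -0.48 and was not called (adjusted p = 0.0928). CPA1, the small subunit of the carbamoyl phosphate synthetase of arginine synthesis, had 580, 597 and 619 with tomatine and 420, 323 and 445 in controls (0.61 ± 0.111, adjusted p = 0.0153). YOR302W, its upstream reading frame and next neighbour on chromosome XV, had 432, 479 and 512 with tomatine and 336, 234 and 358 in controls (0.64 ± 0.158, adjusted p = 0.0448). Both were higher on every tomatine array than on any control array, and they lie on the same transcript, so they do not count as separate evidence. CPA1 lost its call without tomatine 3 (0.063) and YOR302W without any array but control 3 (0.0719 to 0.143). CPA1 was the only one of 13 arginine genes called, where 3.93% of all genes rose. GCN4, the activator of amino acid synthesis genes, stood at 0.07 (adjusted p = 0.678), and 0 of 9 lysine genes and 1 of 12 branched-chain genes were called (ILV2 at 0.30, lost without each of the 6 arrays, 0.0589 to 0.104).

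Sulfur amino acid and transport genes gave a few separate calls. MET6, the methionine synthase, had 708, 896 and 609 with tomatine and 1028, 1184 and 1132 in controls (-0.61 ± 0.116, adjusted p = 0.0182). MUP3, a low-affinity methionine permease, had 77.7, 52.0 and 56.3 with tomatine and 91.2, 127 and 155 in controls (-0.9967 ± 0.199, adjusted p = 0.0201). MXR1, a methionine sulfoxide reductase, had 91.1, 99.9 and 107 with tomatine and 56.7, 70.4 and 67.3 in controls (0.62 ± 0.118, adjusted p = 0.0182). In each case the groups did not overlap, and each call was lost without certain arrays: MET6 without tomatine 3 or control 2 (0.0577 and 0.0716), MUP3 without tomatine 2, tomatine 3, control 2 or control 3 (0.0545 to 0.0809), and MXR1 without tomatine 2, tomatine 3 or control 1 (0.0506 to 0.0732). OPT2, an oligopeptide transporter, had 40.3, 43.5 and 39.0 with tomatine and 94.96, 73.0 and 88.0 in controls (-1.05 ± 0.133, adjusted p = 0.00436) and was called without any 1 array. For SAM3, the S-adenosylmethionine permease, 1 dim probe set fell (-0.86, adjusted p = 0.013) while the brightest of its 5 probe sets was not called (0.09, adjusted p = 0.686), so that the gene has no settled direction.

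The broadest movement was in genes that build ribosomes. Ribosome assembly in the nucleolus needs a large set of processing factors, helicases and export factors, and RNA polymerases I and III make the ribosomal and transfer RNAs. Of 74 measured ribosome biogenesis genes 44 rose and 0 fell, against 3.93% of all genes higher, with a list median of 0.39. All 74 fold changes were above 0, and 68 genes did not overlap between the groups, against 19.5% of all genes that were higher without overlap. Medians by day were 0.36, 0.47 and 0.32. The mean level of the list, set against the control mean, was 0.36, 0.38 and 0.41 on the log2 scale on the tomatine arrays and -0.01, -0.09 and 0.09 on the control arrays.

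The size of each change was modest. RPF2, a factor that brings the 5S particle into the large subunit, had 1062, 1195 and 1147 with tomatine and 762, 747 and 808 in controls (0.56 ± 0.084, adjusted p = 0.00733). KRR1, needed for the small subunit, had 307, 285 and 326 with tomatine and 224, 214 and 204 in controls (0.51 ± 0.0719, adjusted p = 0.00597). DRS1, a helicase of large subunit assembly, had 272, 269 and 280 with tomatine and 189, 148 and 212 in controls (0.60 ± 0.14, adjusted p = 0.037). None of these genes overlapped between the groups. The helicases DHR2 and HCA4 of the small subunit rose by 0.58 and 0.53, the large subunit factors SDA1 and NOP53 by 0.56 and 0.53, and the export factors RRP12 and LTV1 by 0.55 and 0.53 (adjusted p from 0.0129 to 0.0292).

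RPF2 and KRR1 were called without any 1 array. Of the 44 calls, 26, 20 and 7 were kept without tomatine 1, 2 and 3. The fits without control 1, 2 and 3 kept 7, 6 and 35 of them. DRS1 and SDA1 lost their call without any array but control 3 (0.0672 to 0.118). DHR2, HCA4 and RRP12 lost it without tomatine 2, tomatine 3, control 1 or control 2 (0.0549 to 0.107), and LTV1 and NOP53 without tomatine 3, control 1 or control 2 (0.053 to 0.0661).

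Polymerase subunits followed the same direction. Of 23 genes of the list of RNA polymerases I and III 11 rose, against 3.93% of all genes, and 0 fell, with a median of 0.32. RPA135, the second largest subunit of polymerase I, had 1495, 1420 and 1437 with tomatine and 1166, 1072 and 1080 in controls (0.39 ± 0.067, adjusted p = 0.0124). RPO31, the largest subunit of polymerase III, had 388, 368 and 389 with tomatine and 291, 237 and 313 in controls (0.45 ± 0.0963, adjusted p = 0.0258). TOD6, a repressor that binds the PAC element of ribosome biogenesis promoters and was written into this list, had 231, 247 and 242 with tomatine and 147, 139 and 161 in controls (0.69 ± 0.134, adjusted p = 0.0182). The groups did not overlap for these 3 genes, so that this repressor was higher on the same arrays as the ribosome biogenesis genes. Of the 11 calls, 5, 4 and 2 were kept without tomatine 1, 2 and 3. The fits without control 1, 2 and 3 kept 1, 0 and 7 of them. RPA135 lost its call without control 2 (0.0513), RPO31 without any array but control 3 (0.0524 to 0.0883), and TOD6 without tomatine 2, tomatine 3, control 1 or control 2 (0.0527 to 0.0716).

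None of the listed proteins of the ribosome itself passed the test. Of 30 cytosolic ribosomal protein genes that could be measured, of 47 in the list, 0 were called, although 29 were above 0 and the median was 0.09. Many ribosomal proteins have 2 near-identical gene copies, and a probe set that names both was not used. Outside the list, the ribosomal protein genes RPS14B and RPS22B rose by 0.27 and 0.27. Both lost their call without any array but tomatine 2 (0.0716 to 0.148). Of 24 translation factors 3 rose, against 3.93% of all genes, and 0 fell, with a median of 0.16. The 3 were TIF4631, the initiation factor eIF4G (0.32), PRT1 of eIF3 (0.30) and TIF5, the factor eIF5 (0.30). That count was 3 without tomatine 2, of which 2 were the genes just named, and 0 without each other array. PRT1 and TIF5 were called without tomatine 2, and TIF4631 lost its call in each of the 6 fits. TIF4631, PRT1 and TIF5 had adjusted p from 0.0247 to 0.0448 with all arrays and from 0.0552 to 0.138 in the fits that lost their calls. Proteasome genes, with 0 of 32 called, had a median of 0.12 and 31 of 32 above 0, when 53.4% of all genes were above 0.

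**Figure D3:**
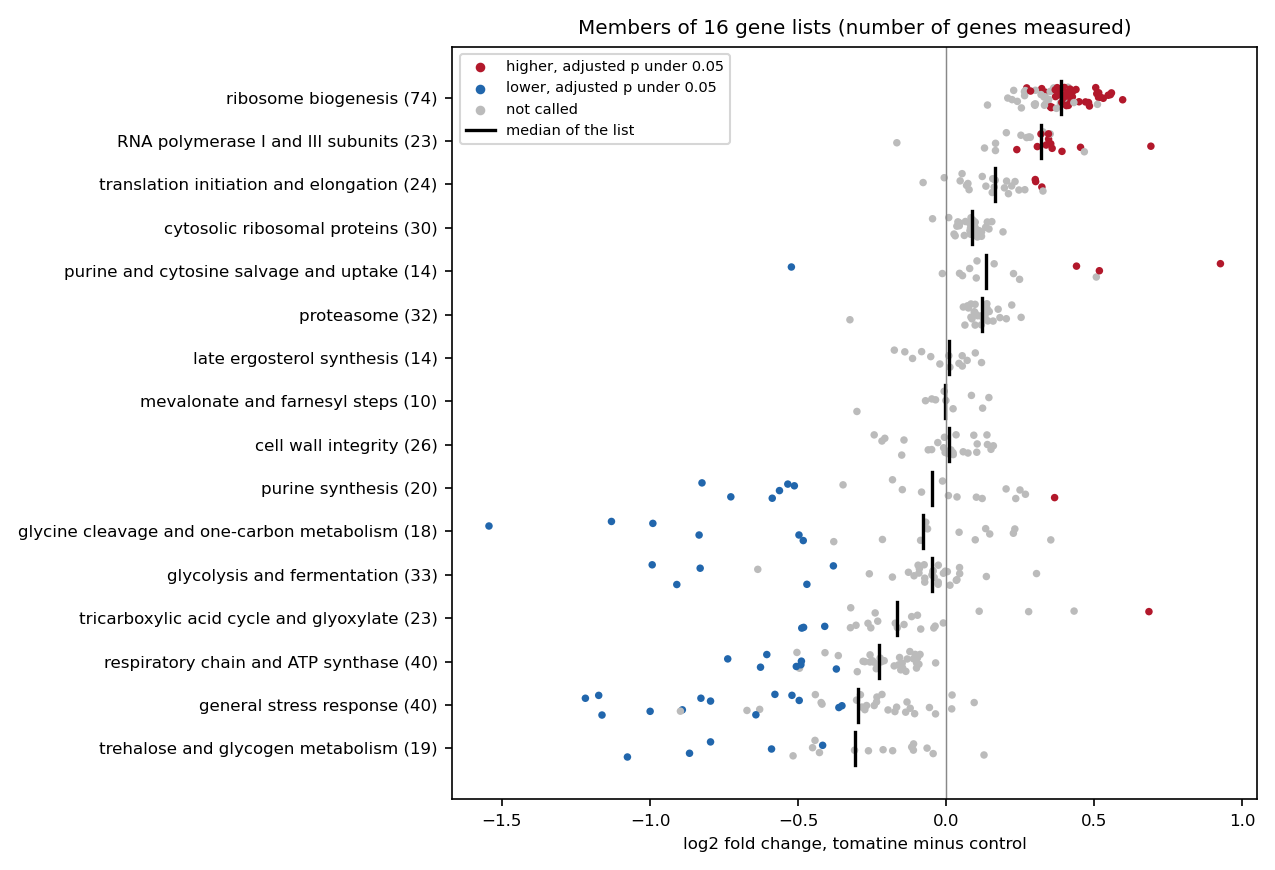
Log2 fold change, tomatine minus control, of each measured gene (points) in 16 lists, with called genes in red (higher) or blue (lower), other genes in grey and the list median as a black bar. The points of ribosome biogenesis all lie above 0, those of late ergosterol synthesis lie close to 0, and in glycine cleavage and purine synthesis a few genes lie far below 0 while the list median does not.

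Genes of the general stress response, which Msn2 and Msn4 activate in many stresses, fell. Of 40 measured genes 13 fell and 0 rose, against 2.53% of all genes lower, with a list median of -0.30. Groups did not overlap for 24 of the 40, against 12.2% of all genes that were lower without overlap. HSP12, a small membrane-associated stress protein, had 398, 454 and 331 with tomatine and 1134, 822 and 736 in controls (-1.17 ± 0.193, adjusted p = 0.0112). HSP26, a small heat shock chaperone, had 76.4, 76.0 and 51.7 with tomatine and 189, 132 and 152 in controls (-1.22 ± 0.194, adjusted p = 0.00978). STF1, a regulator of the mitochondrial ATP synthase, had 378, 352 and 362 with tomatine and 760, 736 and 688 in controls (-0.9996 ± 0.0783, adjusted p = 0.00031). These 3 genes were lower on every tomatine array than on any control array and were called without any 1 array.

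RGI1, a gene of respiratory growth, had 45.5, 40.6 and 52.2 with tomatine and 106, 80.6 and 127 in controls (-1.16 ± 0.266, adjusted p = 0.0338). GAD1, the glutamate decarboxylase, had 229, 140 and 209 with tomatine and 387, 310 and 312 in controls (-0.83 ± 0.163, adjusted p = 0.0191). MSC1 had 64.6, 62.3 and 72.9 with tomatine and 145, 118 and 109 in controls (-0.89 ± 0.207, adjusted p = 0.0358). RGI1 and MSC1 lost their call without each of the 6 arrays (0.0537 to 0.129), GAD1 without control 1 or control 2 (0.0521 and 0.0736), and MSC1 also with the day as a block (adjusted p = 0.051). The other stress genes that fell were GPH1, DCS2, STF2, TFS1, OM45, GRE3 and PNC1, at -0.80 to -0.35 from GPH1 to PNC1. DCS2 lost its call without tomatine 3, control 1 or control 2, STF2 without these or tomatine 2, TFS1, OM45 and PNC1 without any array but control 3, GPH1 without any array but control 2 and GRE3 without each of the 6 (0.0532 to 0.152). MSN4 itself stood at -0.42 (adjusted p = 0.127), and CTT1, the cytosolic catalase often used to mark this response, at -0.17 (adjusted p = 0.469).

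Control 1 stood apart for this list: its mean level was 0.14 on the log2 scale, against -0.05 and -0.09 on the other control arrays and -0.39, -0.44 and -0.43 on the tomatine arrays. Of the 13 genes that fell, 6, 5 and 4 were still called without tomatine 1, 2 and 3, and 3, 4 and 9 without control 1, 2 and 3. The chaperones that Hsf1 drives did not move as a group, with 1 of 23 higher, 1 lower and a median of 0.06. Over all genes 3.93% were higher and 2.53% lower. YDJ1, an Hsp40 cochaperone, had 2572, 2469 and 2808 with tomatine and 1994, 2124 and 1953 in controls (0.37, adjusted p = 0.0124; 0.0543 without control 1). SSE2, an Hsp110 homologue, stood at -0.50 (adjusted p = 0.0137; 0.0513 to 0.0561 without tomatine 3, control 1 or control 2). HSF1 was at -0.02 and HSP104 at -0.06, neither called.

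**Figure D4:**
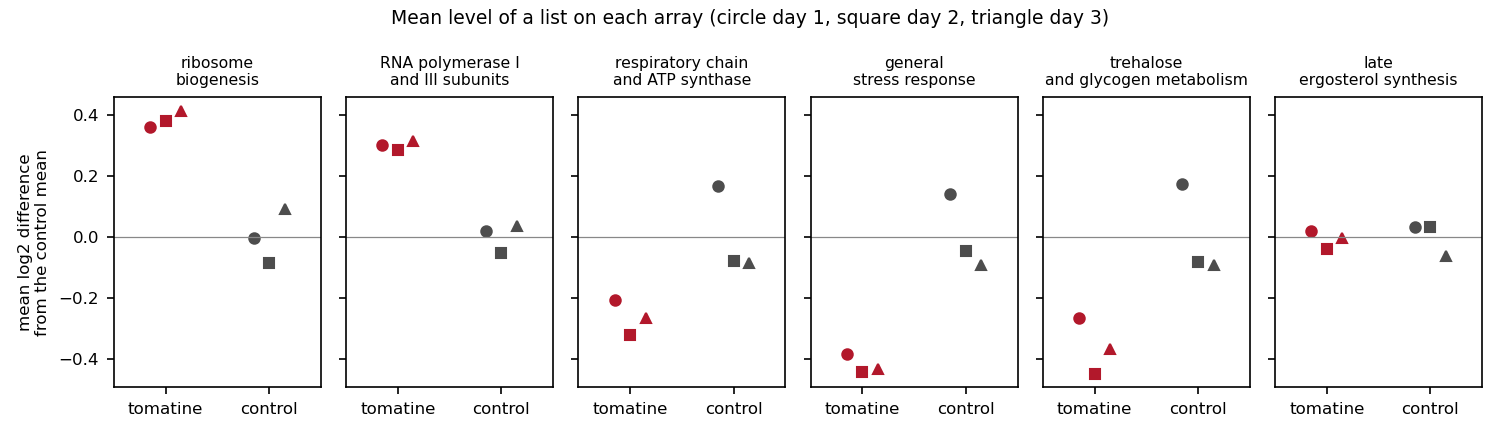
Mean level of the genes of 6 lists on each tomatine array (red, left) and control array (grey, right), as the mean log2 difference from the control mean. Ribosome biogenesis and polymerase lists lie at 0.28 to 0.41 on the tomatine arrays, control 1 is the highest control of the respiratory, stress and trehalose lists, and late ergosterol genes lie between -0.06 and 0.03 on all arrays.

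Reserve carbohydrate genes showed the same direction with more spread. Of 19 genes of trehalose and glycogen metabolism 5 fell, against 2.53% of all genes, and 0 rose, with a median of -0.31. PGM2, the main phosphoglucomutase, had 387, 167 and 303 with tomatine and 723, 511 and 498 in controls (-1.08 ± 0.263, adjusted p = 0.0429), with tomatine 2 the lowest. GLG1, which primes glycogen, had 33.1, 26.6 and 30.8 with tomatine and 61.2, 44.8 and 59.9 in controls (-0.87 ± 0.178, adjusted p = 0.0231). The glycogen phosphorylase GPH1, the branching enzyme GLC3 and the debranching enzyme GDB1 stood at -0.80, -0.59 and -0.42 (adjusted p = 0.0301, 0.0367 and 0.0304). The trehalose synthase subunits TPS1 and TPS2 were not called (-0.21 and -0.31, adjusted p = 0.373 and 0.186). The count of lower genes was 0 without tomatine 2, tomatine 3 or control 1, 2 without tomatine 1 or control 2, and 4 without control 3. Of the 4 counted without control 3, 2 were among the 5 genes above, GLC3 and GDB1. PGM2 lost its call without any array but tomatine 1 (0.0645 to 0.146), GLG1 without tomatine 2, tomatine 3, control 1 or control 3 (0.0621 to 0.0857), GPH1 without any array but control 2 (0.0532 to 0.113), and GLC3 and GDB1 without any array but control 3 (0.0591 to 0.116). The mean level of the list on control 1 was 0.17, against -0.08 and -0.09 on the other controls and -0.27, -0.45 and -0.37 with tomatine.

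A few enzymes of sugar use fell while most of the pathway did not pass the test. Of 33 genes of glycolysis and fermentation 5 fell, against 2.53% of all genes, and 0 rose, with a median of -0.05. HXK1, a hexokinase that is made when glucose runs low, had 1157, 1036 and 1136 with tomatine and 2060, 2000 and 1859 in controls (-0.83 ± 0.111, adjusted p = 0.00574). TDH1, the glyceraldehyde-3-phosphate dehydrogenase isoform of slow growth, had 818, 751 and 556 with tomatine and 1628, 1171 and 1412 in controls (-0.99 ± 0.171, adjusted p = 0.0124). ADH5, an alcohol dehydrogenase isoform, had 150, 128 and 134 with tomatine and 249, 262 and 261 in controls (-0.91 ± 0.123, adjusted p = 0.00574). Each was lower on all tomatine arrays than on any control. ENO1, an enolase, had 7751, 6903 and 7634 with tomatine and 10613, 9639 and 10612 in controls (-0.47 ± 0.0667, adjusted p = 0.00631). ENO1 has the near-identical copy ENO2, which its probes may not tell apart.

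HXK1, ADH5 and ENO1 were called without any 1 array, and TDH1 lost its call without control 1 (0.0543). The fifth gene, the glucokinase GLK1 (-0.38, adjusted p = 0.0472), lost it without any array but control 3 (0.0783 to 0.152) and with the day as a block (adjusted p = 0.07). Of the 5 calls, 3 were kept without control 1, 5 without control 3 and 4 without each other array. BDH1, the butanediol dehydrogenase, had 278, 241 and 249 with tomatine and 511, 493 and 425 in controls (-0.89 ± 0.112, adjusted p = 0.00436) and was called without any 1 array. Its neighbour and homologue BDH2 had 39.7, 37.5 and 46.0 with tomatine and 64.5, 67.0 and 58.7 in controls (-0.63, adjusted p = 0.0358) and lost its call without each of the 6 arrays (0.0555 to 0.116). None of 18 hexose transport genes was called.

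Respiratory genes leaned lower. Among the 40 measured respiratory chain and ATP synthase genes 7 fell, against 2.53% of all genes, and 0 rose. The median was -0.23, and 0 members were above 0, against 53.4% of all genes. CYC1, the main cytochrome c, had 194, 204 and 199 with tomatine and 399, 252 and 363 in controls (-0.74 ± 0.157, adjusted p = 0.0258). NDI1, the internal NADH dehydrogenase, had 188, 159 and 168 with tomatine and 307, 241 and 239 in controls (-0.61 ± 0.121, adjusted p = 0.0205). CYT1, cytochrome c1, had 227, 191 and 217 with tomatine and 420, 305 and 271 in controls (-0.63 ± 0.149, adjusted p = 0.0384). The groups did not overlap, and control 1 was the highest array for each of these genes. QCR10, INH1, QCR2 and SDH4 fell by 0.51, 0.49, 0.49 and 0.37 on the log2 scale. QCR10 lost its call without any array but control 3 (0.0507 to 0.126), QCR2 without any array but control 2 (0.0709 to 0.141), and INH1 and SDH4 without tomatine 2, tomatine 3, control 1 or control 2 (0.0634 to 0.0847).

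The mean level of the respiratory list on control 1 was 0.17, against -0.08 and -0.09 on the other controls and -0.21, -0.32 and -0.27 with tomatine. Of the 7 calls, 3 were kept without tomatine 1 or control 2 and 5 without control 3. Without tomatine 2, tomatine 3 or control 1 the kept calls were 0. NDI1 lost its call without tomatine 2, tomatine 3 or control 1 (0.0634 to 0.074), CYC1 without any array but control 2 (0.0597 to 0.0952) and CYT1 without any array but control 3 (0.0691 to 0.109). In the tricarboxylic acid and glyoxylate list 3 of 23 fell (LSC2 at -0.49, MDH1 at -0.48 and DLD2 at -0.41) and 1 rose. Over all genes 2.53% fell and 3.93% rose. The gene that rose was DLD3, a cytosolic 2-hydroxyglutarate transhydrogenase, with 113, 116 and 121 with tomatine and 62.5, 75.6 and 81.3 in controls (0.69 ± 0.145, adjusted p = 0.0258). DLD3 lost its call without any array but control 3 (0.0576 to 0.0978), LSC2 without tomatine 3 or control 1 (0.0543 and 0.0556), MDH1 without tomatine 2, tomatine 3, control 1 or control 2 (0.0627 to 0.0775) and DLD2 without each of the 6 (0.06 to 0.11). Of the 3 lower calls, 2, 1 and 0 were kept without tomatine 1, 2 and 3. The fits without control 1, 2 and 3 kept 0, 1 and 2 of them. Of 49 mitochondrial ribosomal protein genes only MRPL28 was called (-0.26, adjusted p = 0.049), with a median of -0.10, and its call was lost without each of the 6 arrays (0.0732 to 0.154) and with the day as a block (adjusted p = 0.078).

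Sterol synthesis genes were not called with tomatine. Of the 14 genes from squalene to ergosterol 0 were called, and of the 10 mevalonate and farnesyl genes 0 were called, with medians of 0.01 and -0.00. None of the 24 reached an unadjusted p under 0.05 either, when 13.7% of all genes did so on the higher and 9.23% on the lower side. ERG2, the sterol isomerase, had 2809, 3166 and 3166 with tomatine and 3015, 2985 and 2794 in controls (0.05, 95% interval -0.10 to 0.21). ERG3, the C-5 desaturase, had 2894, 2812 and 2935 with tomatine and 2684, 2721 and 2551 in controls (0.12, -0.02 to 0.26). ERG11, the lanosterol demethylase, had 2393, 2677 and 2403 with tomatine and 2496, 2567 and 2510 in controls (-0.02, -0.17 to 0.13). ERG2 and ERG11 overlapped between the groups, while ERG3 lay slightly above the controls on every tomatine array.

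Some sterol genes had 1 tomatine array that lay apart. ERG24, the sterol C-14 reductase, had 383, 244 and 395 with tomatine and 343, 359 and 333 in controls (-0.05, -0.37 to 0.27), and ERG8, the phosphomevalonate kinase, had 810, 447 and 816 with tomatine and 910, 736 and 825 in controls (-0.30, adjusted p = 0.443). In both genes tomatine 2 was the lowest array of the 6. For UPC2, the sterol-responsive activator of the pathway, tomatine 3 stood out, with 41.0, 44.7 and 63.6 with tomatine and 42.5, 42.2 and 34.6 in controls (0.30 ± 0.142, adjusted p = 0.287, 95% interval -0.01 to 0.61).

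Late sterol genes were called with the other compounds of the series, given at other doses. With tomatidine at 0.625 ppm all 14 late genes were called higher (3.16% of all genes were) and with fenpropimorph at 0.313 ppm all 14 (17.8% of all genes). The list medians were 0.75 with tomatidine and 1.17 with fenpropimorph, beside 0.01 with tomatine. Of the 10 mevalonate and farnesyl genes 1 was called higher with tomatidine, and 8 higher and 1 lower with fenpropimorph (21.4% of all genes were lower), with list medians of 0.15 and 0.45 beside -0.00 with tomatine. ERG2 stood at 0.05 with tomatine, 0.82 with tomatidine and 1.32 with fenpropimorph, and ERG3 at 0.12, 1.15 and 1.29 in the same order. UPC2 stood at 0.30 with tomatine, 0.79 with tomatidine and 2.21 with fenpropimorph. The doses differ and the control arrays are shared, so no test between compounds was made.

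**Figure D5:**
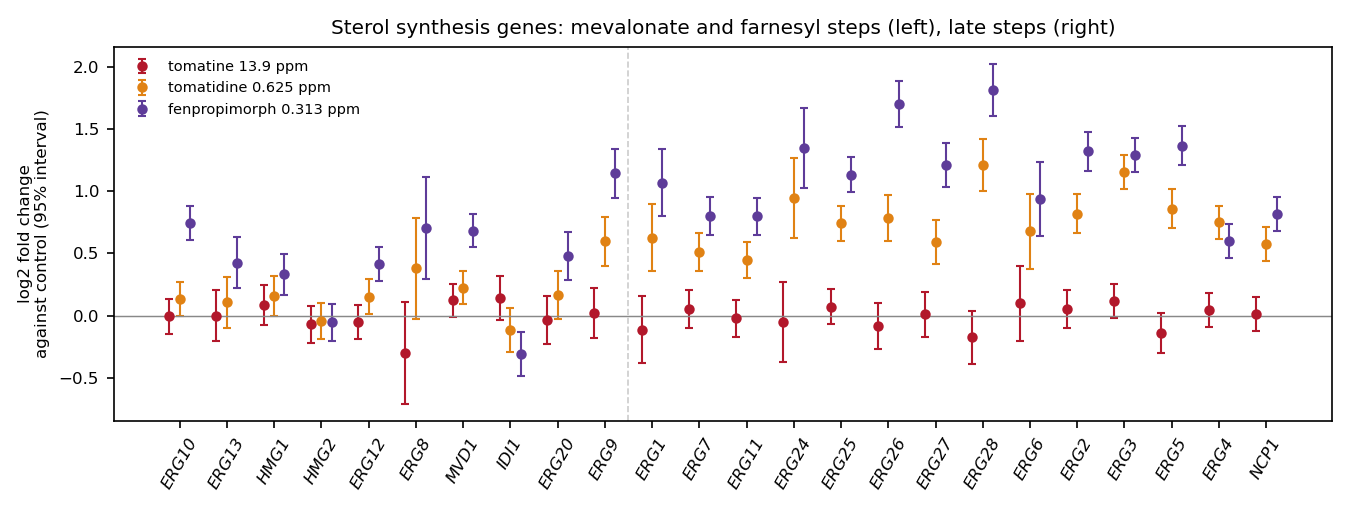
Log2 fold change against control, with 95% intervals, of 10 mevalonate and farnesyl genes (left of the dashed line) and 14 late genes (right), for tomatine (red), tomatidine (orange) and fenpropimorph (purple). The tomatine intervals all include 0, while the late genes have medians of 0.75 with tomatidine and 1.17 with fenpropimorph, at doses that differ.

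Other sterol and membrane lists held few calls. Of 25 genes of sterol uptake, storage and transport 1 rose and 1 fell, where 3.93% of all genes rose and 2.53% fell. ATF2, an acetyltransferase that acts on alcohols and sterols, had 269, 287 and 253 with tomatine and 200, 230 and 212 in controls (0.34 ± 0.0752, adjusted p = 0.0305), where the log2 fold changes were 1.91 with tomatidine and 1.77 with fenpropimorph. NCR1, the yeast homologue of the Niemann-Pick C1 protein, stood at -0.32 on its brightest probe set (adjusted p = 0.0182). A dimmer probe set of NCR1 was called too (-0.52, adjusted p = 0.0404). Others stood at -0.16, -0.17 and 0.01 and were not called. ATF2 lost its call without any array but control 2 (0.0582 to 0.116). The brightest NCR1 probe set lost it without tomatine 1, control 1 or control 2 (0.0553 to 0.0711), and the dimmer one without each of the 6 (0.0721 to 0.132). The 8 cell wall mannoproteins of anaerobic growth had 0 calls and a median of 0.08 with tomatine, beside 1.66 with tomatidine and 2.09 with fenpropimorph.

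Of 26 cell wall integrity genes and 19 phospholipid genes none was called. The counts below stand beside 3.93% of all genes that rose and 2.53% that fell. Among 16 cell surface sensors and eisosome genes 1 rose, the sensor WSC3, with 62.2, 62.5 and 70.3 with tomatine and 50.3, 48.5 and 53.6 in controls (0.36 ± 0.0686, adjusted p = 0.0182; 0.0646 to 0.073 without tomatine 3, control 1 or control 2). Among 31 genes of fatty acid and sphingolipid synthesis the ceramidase genes YPC1 and YDC1 fell (-0.51 and -0.37, adjusted p = 0.0393 and 0.0404). YDC1 lost its call with the day as a block (adjusted p = 0.052) and without any array but control 3 (0.0911 to 0.142), and YPC1 without each of the 6 (0.0508 to 0.139). Of 22 pleiotropic drug resistance genes 1 fell, the polyamine exporter gene TPO3, on a dim probe set with 3.25, 3.16 and 2.88 with tomatine and 5.66, 4.92 and 5.21 in controls (-0.76, adjusted p = 0.00681). PDR5, the main drug efflux pump, was dim as well, with 18.5, 17.5 and 20.8 with tomatine and 21.6, 27.0 and 19.3 in controls (-0.25, adjusted p = 0.471), and none of its 7 probe sets was called.

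Further lists with calls were oxidative stress with 3 of 24 lower (GRX1 at -0.49, GTT1 at -0.39 and SOD2 at -0.35), the phosphate regulon with 1 of 18 lower (PHM6 at -0.40), iron and zinc uptake with 1 of 24 higher (FIT2 at 0.37) and meiosis with 1 of 20 lower (the dim DIT1 at -0.44). Over all genes 2.53% were lower and 3.93% higher. Amino acid permeases beside OPT2 and MUP3 gave GAP1, the general amino acid permease (-0.49, adjusted p = 0.0137), and BAP2, a leucine permease (0.30, adjusted p = 0.0355). GRX1 and SOD2 lost their calls without tomatine 3 or control 1, GAP1 without tomatine 3 or control 2, PHM6 without tomatine 1, tomatine 2, control 1 or control 2, BAP2 without tomatine 1, tomatine 3, control 1 or control 2, DIT1 without any array but control 3, and GTT1 and FIT2 without each of the 6. In those fits their adjusted p lay between 0.0537 and 0.131. Of 18 cyclin and histone genes 0 were called.

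The highest gene of all was PRM7, named for its regulation by pheromone. It had 647, 600 and 485 with tomatine and 246, 181 and 244 in controls (1.37 ± 0.172, 2.59-fold, adjusted p = 0.00436), with no overlap, and its second probe set stood at 1.39 ± 0.179. Both were called without any 1 array. BSC1, the next gene on chromosome IV, had 79.2, 86.5 and 85.6 with tomatine and 41.2, 44.9 and 49.2 in controls (0.90 ± 0.193, adjusted p = 0.027), and lost its call without any array but control 3 (0.0579 to 0.0978). PRM7 was the only one of 26 genes of pheromone response and cell fusion that was called, where 3.93% of all genes rose. Whether the neighbours share a transcript on these arrays was not tested.

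Gene neighbourhood, read from the S288C reference table (assembly R64), held 33 pairs of neighbours that were both called, 23 in the same direction and 10 in opposite directions. The 23 include YOR302W and CPA1, which lie on the same transcript. These counts were not set against pairs of genes that are not neighbours, so whether neighbours share a direction more often was not tested. Those named here were chosen after their values were seen, apart from the genes of the naming rule. Among the opposite pairs, MTD1, which fell, is next to RPF2, which rose, and LSC2, which fell, is next to SDA1, which rose. SHM2 fell beside REX2 at 0.31, and HAS1, a ribosome biogenesis helicase, rose by 0.38 beside TDA1 at -0.62. REX2 lost its call without any array but tomatine 1 (0.0721 to 0.166), HAS1 without control 1 or control 2 (0.0513 and 0.0546) and TDA1 without control 2 (0.0592). NSE5, a subunit of the Smc5/6 complex, had 126, 123 and 126 with tomatine and 88.7, 87.4 and 78.8 in controls (0.56 ± 0.0859, adjusted p = 0.00778) and is next to APT1, which rose too. YBL028C, a nucleolar protein, rose by 0.58 (adjusted p = 0.00681). NSE5 and YBL028C were called without any 1 array. EGO4 fell and stood at -0.88 (adjusted p = 0.0126; 0.0543 without control 1).

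Set beside the other compounds, the members moved in several ways. GCV1, GCV2 and GCV3 stood at -1.13, -1.54 and -0.83 with tomatine, at -0.43, -0.48 and -0.43 with tomatidine and at -0.88, -1.06 and -0.86 with fenpropimorph. CHA1 stood at 1.24, 1.16 and 1.18 in that order of compounds. HSP26 stood at -1.22 with tomatine, -0.54 with tomatidine and 1.91 with fenpropimorph, and HSP12 at -1.17, -0.9954 and 1.97. RPF2 stood at 0.56, 0.31 and -0.24. For the ribosome biogenesis list the medians were 0.39 with tomatine, 0.19 with tomatidine and -0.31 with fenpropimorph, 44, 3 and 0 of 74 genes were called higher, and 0, 0 and 53 were called lower. For the general stress list they were -0.30, -0.22 and 0.88, with 0, 0 and 30 of 40 genes called higher and 13, 7 and 2 lower. Over all genes 3.93%, 3.16% and 17.8% were higher and 2.53%, 2.46% and 21.4% lower in that order. CYC1 stood at -0.74 with tomatine, -1.47 with tomatidine and -1.85 with fenpropimorph. All of these values share the control arrays and are not independent of each other.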

How the data were processed

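Per the labels, total RNA from each culture was hybridised to 1 Affymetrix array. The deposited files give an intensity per probe set, made by the authors with RMA per the submitters' processing notes; version and settings are not given in the sources used here. They are on a linear scale, and log2 was taken here. Of 9335 probe sets 60 controls were left out and 9275 tested, of which 6504 name 1 gene, 328 several and 2443 none in the platform annotation. All 6504 matched the R64 reference table. The brightest probe set stood for each of 5656 genes.

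A limma model (3.58.1, R 4.3.3) held the 4 groups, all 12 arrays and no term for day, and p-values were two-sided and Benjamini-Hochberg adjusted (prior degrees of freedom 3.65, residual 8). Files were read with pandas 2.3.3 and figures drawn with matplotlib 3.10.9 in Python 3.11.15. The method was tested on simulated data. The number of arrays limits the precision.

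The labels speak of 3 independent days, and replicate numbers are those days, so they pair the samples. Deviations from the group means correlated between arrays of the same day at 0.0351 on average (18 pairs, -0.203 to 0.236), and at 0.186, 0.0733 and -0.0371 for tomatine and control of days 1, 2 and 3. The day was a block in an alternative. Other alternatives were another normalization between arrays, only these 2 groups in the fit, array weights, a trended prior, leaving out dim probe sets, 1 probe set for each gene, 16 added before the log, and leaving out each array.

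The compared groups and the 40 gene lists (950 entries, 905 measured) were chosen with earlier results of these data known. Genes were named by a rule: the 20 highest and 20 lowest called probe sets of 1 gene that moved the same way on all 3 days, all members of the one-carbon, purine, sterol and mating-type lists, from every other list the 5 called members that changed most, and UPC2, PDR5, GCN4, MSN4, BAS1 and HSF1. Chosen after their values were seen were KRR1, HAS1, CTT1, HSP104, TPS1, TPS2, DCS2, STF2, TFS1, OM45, GRE3, PNC1, QCR2, SDH4, BDH2, REX2, TDA1, the second probe set of HIS3, and every gene of the observations that close the text. So were RPS14B, RPS22B and the probe sets of NCR1 beside its brightest.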

Additional observations from a re-analysis of the deposited data

How the results depend on the processing

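With the day of culture as a block, 411 probe sets were called (235 higher, 176 lower) and 340 of the 404 kept their call. Of the 96 called probe sets that the naming rule took 91 kept theirs under the block. With only the tomatine and control arrays in the fit 48 of the 96 and 111 of the 404 kept theirs. That fit called 16 ribosome biogenesis and 2 polymerase genes higher, where the fit of all arrays called 44 and 11. It called 5 general stress and 0 respiratory genes lower, in place of 13 and 7. One-carbon and purine genes called lower were 5 and 5, in place of 6 and 6. Quantile normalization gave 405 calls, median centring 469, array weights 431 and a trended robust prior 572. Counts moved by over 1.5 times in these settings: with only the tomatine and control arrays in the fit 121 were called (56 higher, 65 lower), with only probe sets above the 40th percentile of mean signal 632 (408 higher), with 1 probe set per gene 645 (404 higher), and with 16 added before the log 625 (385 higher). Leaving out 1 array gave 83 to 276 calls, 42 to 158 higher and 41 to 118 lower, and the lowest counts came without control 1. The block together with only these 2 groups, an alternative chosen after seeing the data, left 4 calls (1 higher, 3 lower); only 2 residual degrees of freedom among the 6 arrays remain in that fit. Of the 96 called probe sets of the naming rule none changed direction in any of these alternatives. For the other called probe sets direction was followed only in the fits without 1 array. Among values of lists and single genes 463 lost a call or their side of the threshold, 24 gained it, 305 moved and 3049 stayed. Promoter sequences were not used here, so a planned description of motifs was not run.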

Other observations

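The lowest probe set of all 9275 names no gene in the platform annotation. It had 20.5, 17.4 and 17.5 with tomatine and 73.6, 77.5 and 89.9 in controls, a log2 fold change of -2.12 ± 0.255 (4.35-fold lower, limma adjusted p = 0.00436), and was called without any 1 array. It stood at -1.48 with tomatidine and -2.53 with fenpropimorph, against the same controls. This probe set was dim, with a mean of 35.9 over all arrays.

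Genes of the route from tryptophan to NAD were in none of the lists and were looked at after their values were seen. BNA2, the dioxygenase that opens tryptophan, had 35.1, 30.6 and 32.1 with tomatine and 53.3, 56.0 and 48.8 in controls (-0.69, adjusted p = 0.00676). BNA6, which joins the route to the phosphoribosyl donor, had 551, 524 and 482 with tomatine and 880, 859 and 783 in controls (-0.70, adjusted p = 0.00436). BNA4, the kynurenine hydroxylase, had 263, 227 and 268 with tomatine and 439, 367 and 387 in controls (-0.65, adjusted p = 0.0181). The groups did not overlap for these 3 genes. BNA1, BNA5 and BNA7 were not called (-0.31, -0.28 and -0.07, adjusted p = 0.0906, 0.16 and 0.795). ARO9, which degrades aromatic amino acids, had 232, 245 and 199 with tomatine and 369, 346 and 315 in controls (-0.61, adjusted p = 0.00733).

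Single genes outside the lists, chosen in the same way, include URA7 and APE1. URA7, the major CTP synthase, had 1395, 1304 and 1450.4 with tomatine and 955, 990 and 987 in controls (0.50, adjusted p = 0.00436). APE1, a vacuolar aminopeptidase, had 312, 321 and 298 with tomatine and 552, 480 and 496 in controls (-0.71, adjusted p = 0.00436).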
